A study of Mus musculus with 9 samples.

Results

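Astrocytes are the star-shaped glial cells of the brain. They take up glutamate released at synapses, move water and potassium to the blood vessels through flattened processes called endfeet, and share ions and metabolites with their neighbours through gap junctions. When neurons are injured astrocytes can become reactive, which is commonly read from a higher level of the filament protein Gfap. The genes described here are 10 that mark astrocytes, measured in the substantia nigra (SN) after methylphenidate (MPH), a blocker of the dopamine and noradrenaline transporters. They are Mlc1, Aqp4, Gfap, Slc1a2, Slc1a3, Aldh1l1, Gja1, Gjb6, S100b and Glul. Every probe set that the array platform annotates with one of these symbols was taken, which gave 20 probe sets for 9 of the 10 genes, among 45037 probe sets and 17097 genes in all. No probe set was annotated with Glul (glutamine synthetase), which was therefore not analysed here.

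Swiss Webster mice, all of the same strain and without a transgene, received either saline or MPH, at 1 mg/kg or at 10 mg/kg, by daily injection on a school-day schedule over 3 months from a juvenile age, and the SN was dissected after a drug washout. Each group was measured on 3 Affymetrix HT MG-430 PM arrays, on which a probe set is a group of short probes for 1 transcript, and the values are log2 intensities. A difference of 1 is therefore a doubling of intensity. Nothing in the labels says whether an array holds 1 mouse or several, so p-values measure the spread between these arrays only. The lists of changed genes published for these arrays carry the 2 doses the other way round from the deposited labels, entry by entry, and the arrays do not show which is right. Each group keeps its deposited label in what follows, and no order by dose is read from the labels.

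Medians of the 9 arrays lay between 4.49 and 4.53. The 23 control probe sets that match no mouse transcript had a median of 2.93, with means of up to 5.07 for single probe sets, so a value in that range cannot be told from background. Of 3 defining genes of the SN 2 were bright in every array, with Th (tyrosine hydroxylase, of dopamine synthesis) between 10.31 and 10.63 in the MPH arrays and between 10.99 and 11.18 in the saline arrays, and Slc6a3 (the dopamine transporter) between 11.63 and 11.86 in the MPH arrays and between 11.90 and 12.09 in the saline arrays. The probe set of Pitx3, a transcription factor of dopamine neurons, read between 3.65 and 3.92 in the MPH arrays and between 3.87 and 4.30 in the saline arrays, within the range of the controls. Marker genes of neighbouring tissue differed between single arrays. Genes of serotonin neurons, which lie outside the SN, had a median 2.25 above their mean over the 9 arrays in saline replicate 2 and 1.37 above it in saline replicate 3. Genes of the cortex and hippocampus were 1.12 above their mean in 10 mg/kg replicate 1, and those of the meninges 1.03 above theirs. These values are given again beside the astrocyte results that move with them. In dissected tissue, fewer astrocytes and less RNA per astrocyte cannot be told apart.

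The brightest probe set of each of the 9 measured genes had a mean above the highest control probe set, and all 9 genes were thus detected in the SN. Means over the 9 arrays were 12.06 for Gja1, 11.58 for S100b, 11.57 for Aqp4, 9.64 for Gjb6, 9.59 for Mlc1, 8.86 for Gfap, 8.46 for Aldh1l1, 6.47 for Slc1a2 and 5.62 for Slc1a3. These means depend on the probes as well as on the RNA, so they give no order of abundance between the genes. The tissue therefore carried the RNA of endfoot, filament, transporter, gap junction, enzyme and calcium-binding genes alike.

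Of these genes Mlc1 alone stood apart from saline by its unadjusted p, with lower values at both doses, and none passed the adjusted test. Among the 20 probe sets, 0 had an adjusted p under 0.05 at 1 mg/kg and 0 at 10 mg/kg in a limma fit that held the replicate number as a block, and over all 45037 probe sets 0.0% did in either comparison. An unadjusted p under 0.05 was found for 1 of the 20 at 1 mg/kg and for 1 at 10 mg/kg, where 10.3% and 9.59% of all probe sets had one. Between the doses it was 1 of the 20, against 6.39% of all probe sets. In each of these 3 comparisons the 1 probe set was that of Mlc1. At 1 mg/kg, 7 of the 20 probe sets had higher values than saline and 13 lower ones, with a median log2 difference of -0.03. At 10 mg/kg, 8 had higher values and 12 lower ones, with a median of -0.05. With the brightest probe set standing for each gene, the medians were -0.04 in both comparisons, against -0.02 in both for all 17097 genes. The 95% of all genes nearest the middle lay between -0.37 and 0.30 in the 1 mg/kg comparison and between -0.35 and 0.33 in the 10 mg/kg comparison. Mlc1 at 10 mg/kg was the member outside that range.

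**Figure D1:**
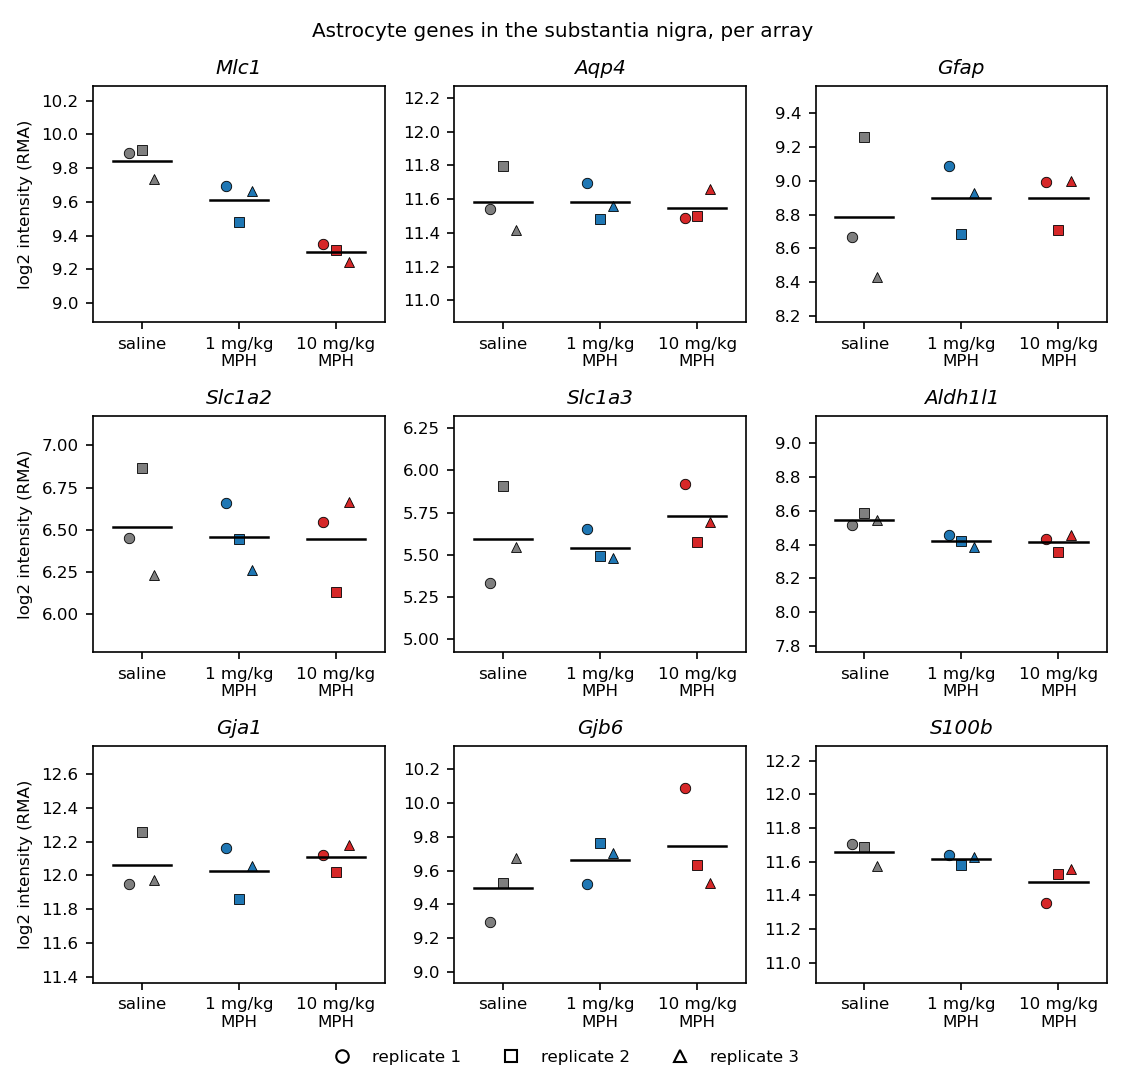
Log2 intensity of the brightest probe set of each of the 9 measured astrocyte genes (vertical axes, one panel a gene, each spanning the same number of log2 units) in the 3 saline, 3 1 mg/kg MPH and 3 10 mg/kg MPH arrays. Symbols give the replicate number and bars the group means. Mlc1 separates the groups, with means of 9.84, 9.61 and 9.30, while in the other panels the groups overlap or nearly touch.

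Mlc1 codes for a membrane protein of astrocyte endfeet that binds Hepacam and takes part in the regulation of cell volume. In humans, loss of MLC1 causes a leukodystrophy with cysts. Its 1 probe set read 9.89, 9.91 and 9.74 in the saline arrays, 9.70, 9.48 and 9.67 at 1 mg/kg, and 9.35, 9.31 and 9.24 at 10 mg/kg. Every 10 mg/kg array was thus below every 1 mg/kg array, and every 1 mg/kg array below every saline array. Mlc1 averaged 9.30 ± 0.06 at 10 mg/kg and 9.84 ± 0.09 in saline (SD, n = 3 each), a log2 difference of -0.54 with a 95% interval of -0.74 to -0.34, which is a change in intensity of -31.3%. The adjusted p was 0.329 in limma with the replicate block, and 0.0755% of all probe sets had a p as small. Without the block the adjusted p was 0.0415, so that the call rests on this choice, and 0.255% of all probe sets then passed in that comparison, 0.12% in the 1 mg/kg comparison. Whether the deposited values had already been corrected for the replicate batch is not given in the sources used here, and that bears on both p-values. Replicate numbers differed less in these values than chance gives, with a median F of 0.073 over probe sets against 0.828. Values with the replicate means already removed would show this. The fit without the block would then understate the spread, and its p-values would be too small. Its standard error for Mlc1 was 0.0755, against 0.0853 with the block. At 1 mg/kg Mlc1 averaged 9.61 ± 0.12 (SD, n = 3), a difference from saline of -0.23 with an interval of -0.43 to -0.03 (adjusted p = 0.447, and 0.166 without the block). The log2 difference of the 10 mg/kg arrays from the 1 mg/kg arrays was -0.31, with an interval of -0.51 to -0.11 (adjusted p = 0.774, and 0.18 without the block).

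With 3 arrays a group the smallest two-sided p that exact permutation allows is 0.1, and Mlc1 reached it in each of the 3 comparisons. Groups that did not overlap, with all MPH arrays lower, were found for 12.4% of all probe sets in the 1 mg/kg comparison and for 13.1% in the 10 mg/kg comparison. Among the 20 astrocyte probe sets this held for 3 in each comparison, a share close to that background. All 10 mg/kg arrays were below all 1 mg/kg arrays for 2 of the 20, and for 9.44% of all probe sets. Leaving out any single array kept Mlc1 between -0.59 and -0.48 in the 10 mg/kg comparison. In the 1 mg/kg comparison it gave between -0.30 and -0.14, with -0.14 coming without 1 mg/kg replicate 2. Mlc1 is also on the list of changed genes that the study chose from these same arrays, so its difference is not independent evidence. Control probe sets at the 3' and 5' ends of a transcript measure how intact the RNA was. For Actb the log2 gap between the ends was 1.03 to 1.19 in the 6 MPH arrays and 0.882 to 0.934 in the saline arrays, and for Gapdh it was 0.224 to 0.409 in the MPH arrays and 0.231 to 0.387 in the saline arrays. The part of RNA quality in the Mlc1 difference was not tested.

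**Figure D2:**
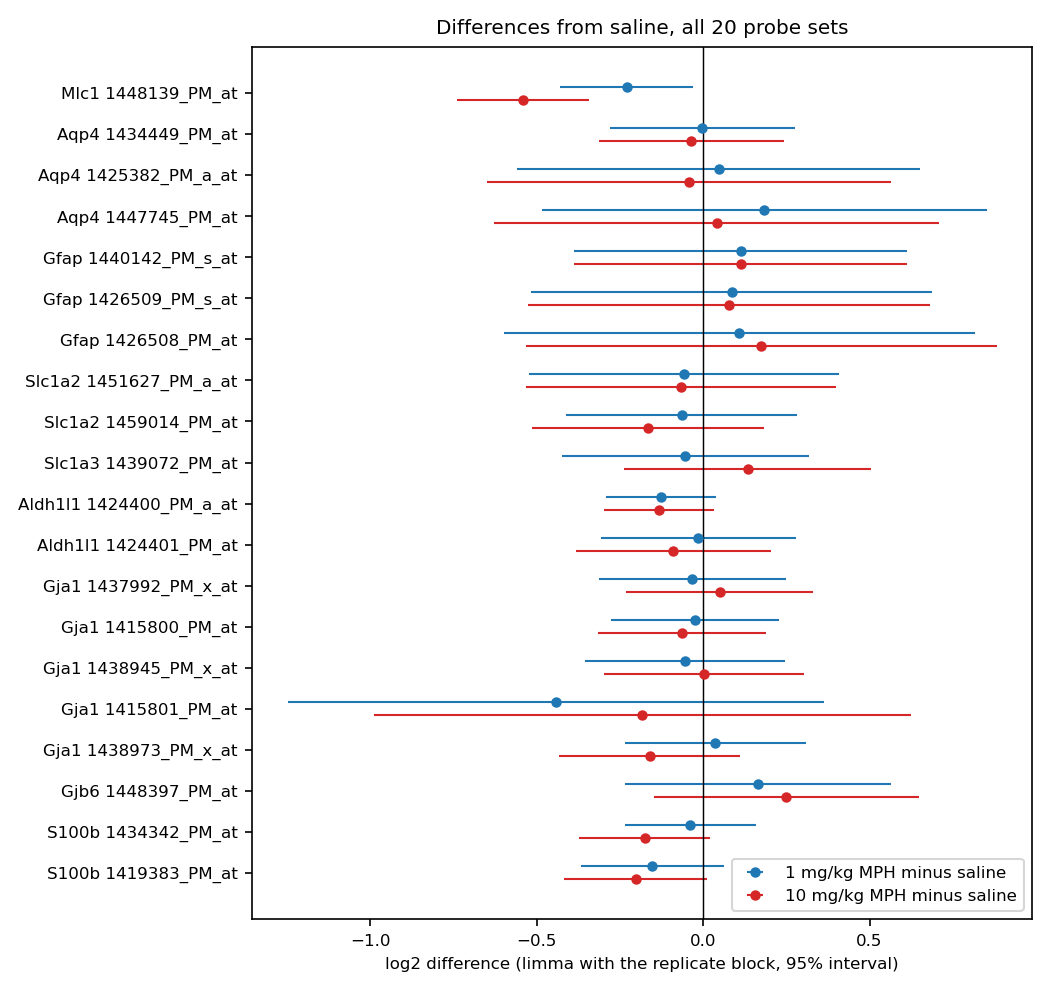
Log2 difference from saline (horizontal axis) for each of the 20 astrocyte probe sets (vertical axis), in arrays labelled 1 mg/kg MPH (blue) and 10 mg/kg MPH (red). Points are limma estimates with the replicate block and lines are 95% intervals without adjustment for the number of probe sets. Only the intervals of Mlc1, from -0.43 to -0.03 and from -0.74 to -0.34, lie wholly on one side of 0.

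Aqp4, the water channel that astrocytes concentrate in their endfeet, did not pass the test. The brightest of its 3 probe sets read 11.54, 11.80 and 11.41 in saline, 11.70, 11.48 and 11.56 at 1 mg/kg and 11.49, 11.50 and 11.66 at 10 mg/kg. All 3 groups overlapped, and the saline arrays alone spanned the values of both MPH groups. The difference from saline was -0.00 at 1 mg/kg, with a 95% interval of -0.28 to 0.28, and -0.04 at 10 mg/kg, with an interval of -0.31 to 0.24 (adjusted p = 0.996 and 0.941). A change as large as the Mlc1 estimate at 10 mg/kg lies outside these intervals of the brightest probe set. The other probe sets of Aqp4 gave 0.05 and 0.18 at 1 mg/kg, and -0.04 and 0.04 at 10 mg/kg, with wider standard errors of 0.26 and 0.29. Their intervals at 10 mg/kg, -0.65 to 0.56 and -0.63 to 0.71, include the Mlc1 estimate.

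Gfap, the intermediate filament protein whose RNA is commonly measured as a sign of reactive astrocytes, varied most within groups. Its brightest probe set read 8.67, 9.26 and 8.43 in saline, 9.09, 8.69 and 8.93 at 1 mg/kg, and 8.99, 8.71 and 8.997 at 10 mg/kg. Saline replicates 2 and 3 were the highest and the lowest of all 9 arrays, and both MPH groups fell between them. The difference was 0.11 in each MPH group with a standard error of 0.21, and the interval ran from -0.39 to 0.61 in both (adjusted p = 0.882 and 0.889). Its other 2 probe sets gave 0.09 and 0.11 at 1 mg/kg, and 0.08 and 0.17 at 10 mg/kg. Without saline replicate 2 the estimate became 0.45 in both comparisons, still with adjusted p = 0.707 and 0.512. Neither a rise nor a fall of Gfap was detectable with these arrays, since 3 saline arrays alone covered 0.83 on the log2 scale.

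Slc1a2 and Slc1a3 code for GLT-1 and GLAST, the transporters that clear synaptic glutamate into astrocytes. Slc1a2 read 6.45, 6.86 and 6.23 in saline, 6.66, 6.45 and 6.26 at 1 mg/kg and 6.54, 6.13 and 6.67 at 10 mg/kg. Slc1a3 read 5.33, 5.91 and 5.54 in saline, 5.65, 5.49 and 5.48 at 1 mg/kg and 5.92, 5.57 and 5.69 at 10 mg/kg. The groups overlapped for both transporters. Slc1a2 differed from saline by -0.06 at 1 mg/kg and by -0.07 at 10 mg/kg with a standard error of 0.20, and Slc1a3 by -0.05 and 0.13 with a standard error of 0.16 (adjusted p between 0.81 and 0.94). A second probe set of Slc1a2 gave -0.06 and -0.17. It stayed between 3.54 and 4.02, within the range of the control probe sets, so its values cannot be told from background.

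Gja1 and Gjb6 code for the connexins that form the gap junctions between astrocytes. The brightest of the 5 Gja1 probe sets read 11.95, 12.26 and 11.97 in saline, 12.16, 11.86 and 12.05 at 1 mg/kg and 12.12, 12.02 and 12.18 at 10 mg/kg. Its difference was -0.03 at 1 mg/kg and 0.05 at 10 mg/kg with a standard error of 0.12 (adjusted p = 0.945 and 0.916), and some of its probes may match other sequences, as the x in its platform name marks. Among the other Gja1 probe sets, the next brightest pair, with means of 11.34 and 11.01, gave differences between -0.06 and 0.00 in both groups, whereas the dimmer pair gave -0.44 and 0.04 at 1 mg/kg and -0.18 and -0.16 at 10 mg/kg, with standard errors of 0.35 and 0.12. Gjb6 read 9.29, 9.53 and 9.67 in saline, 9.52, 9.76 and 9.70 at 1 mg/kg and 10.09, 9.63 and 9.52 at 10 mg/kg. Gjb6 had the highest estimates among the brightest probe sets, 0.16 at 1 mg/kg and 0.25 at 10 mg/kg with a standard error of 0.17, and its groups overlapped (adjusted p = 0.769 and 0.651). In the 10 mg/kg group the high value came from replicate 1, the array with the high cortex, hippocampus and meninges genes, and without that array the estimate was -0.01. At 1 mg/kg the estimate was 0.01 without saline replicate 1.

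Aldh1l1, an enzyme of folate metabolism used as a marker of astrocyte cell bodies, was the steadiest gene. Its brighter probe set read 8.51, 8.59 and 8.54 in saline, 8.45, 8.42 and 8.38 at 1 mg/kg and 8.43, 8.36 and 8.45 at 10 mg/kg. All 6 MPH arrays were below all 3 saline arrays, by a small margin. The difference was -0.13 in both MPH groups with a standard error of 0.07, with intervals from -0.29 to 0.04 at 1 mg/kg and from -0.30 to 0.03 at 10 mg/kg, and the values did not pass the test (adjusted p = 0.567 and 0.575, whereas the fit without a block gave 0.238 and 0.235). The second Aldh1l1 probe set, between 3.60 and 3.98, was within the range of the controls.

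S100b, a calcium-binding protein of astrocytes that oligodendrocytes also express, was measured by 2 bright probe sets. The brighter one read 11.71, 11.69 and 11.57 in saline, 11.64, 11.58 and 11.63 at 1 mg/kg and 11.36, 11.53 and 11.55 at 10 mg/kg. The other read 11.49, 11.44 and 11.32 in saline, 11.23, 11.28 and 11.29 at 1 mg/kg and 11.06, 11.27 and 11.32 at 10 mg/kg. Both had their lowest value in 10 mg/kg replicate 1. At 10 mg/kg the estimates were -0.18 and -0.20 with standard errors of 0.08 and 0.09 (adjusted p = 0.551 and 0.53), and at 1 mg/kg they were -0.04 and -0.15 (adjusted p = 0.898 and 0.594). The brighter probe set had all 10 mg/kg arrays under all saline arrays, and the other had all 1 mg/kg arrays under them. Oligodendrocyte genes had a median of -0.44 relative to their mean over the arrays in 10 mg/kg replicate 1, and 9 of 12 measured ones had lower values than saline in the 10 mg/kg arrays, with a median of -0.27. Without that array the oligodendrocyte median was 0.00 and the estimate of the brighter S100b probe set -0.10. The part of oligodendrocytes in the S100b values was not tested.

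The spread between arrays of one group differed widely among the astrocyte genes. The pooled within-group SD was 0.29 for Gfap, 0.27 for Slc1a2, 0.22 for Gjb6, 0.20 for Slc1a3, 0.14 for both Gja1 and Aqp4, 0.09 for Mlc1, 0.08 for S100b and 0.04 for Aldh1l1, against a median of 0.10 over all probe sets. Gfap was more variable than 96.5% of all probe sets and Aldh1l1 more variable than 5.6%. The same differences between groups were thus measured far more closely for Aldh1l1, S100b and Mlc1 than for Gfap and Slc1a2.

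Much of that spread was shared. Within the saline group 16 of the 20 probe sets had their highest value in replicate 2, within the 1 mg/kg group 15 had it in replicate 1, and within the 10 mg/kg group 15 had it in replicate 3, whereas over all probe sets the same arrays were highest for 34.1%, 35.2% and 31.7%. All 3 held at once for 12 of the 20 probe sets, and for 7.52% of all probe sets. These 12 were the 3 probe sets of Aqp4, 2 of Gfap, both of Slc1a2, the bright one of Aldh1l1 and 4 of Gja1, and they include probe sets in the range of the controls. Mlc1, Slc1a3, Gjb6 and S100b did not follow the full order. The arrays were picked out after the values were seen, so these counts describe the arrays and carry no test.

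**Figure D3:**
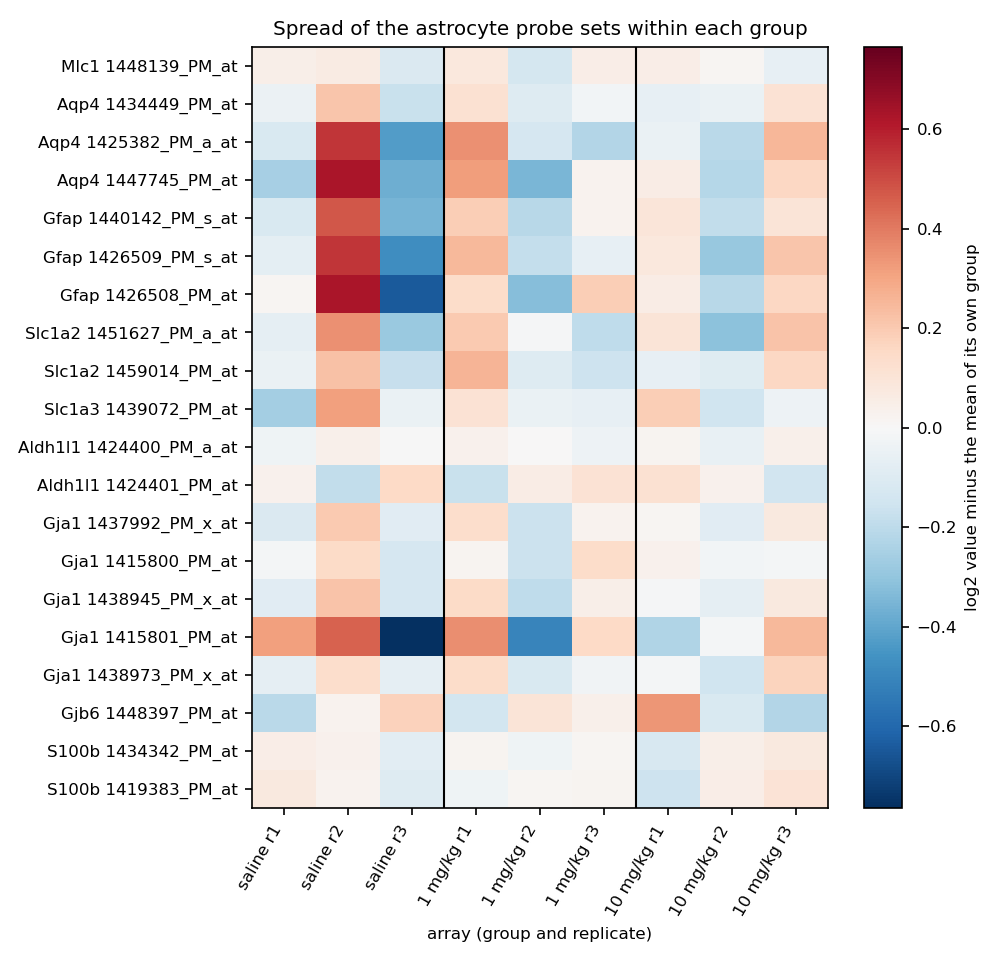
Deviation of each of the 20 astrocyte probe sets (rows) from the mean of its own group, in log2 units (colour), for the 9 arrays (columns, 3 a group). Red cells gather in saline r2, in 1 mg/kg r1 and in 10 mg/kg r3, where 16, 15 and 15 of the 20 probe sets had the highest value of their group.

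The mean of the 9 brightest probe sets put a number on this for each array. It was 9.26, 9.53 and 9.24 in saline, 9.40, 9.25 and 9.30 at 1 mg/kg and 9.37, 9.20 and 9.33 at 10 mg/kg. Saline replicate 2 was the highest of the 9 arrays, and the MPH arrays lay within the range of the saline arrays except for 10 mg/kg replicate 2, which was 0.04 below it. In saline replicate 2 the serotonin genes were at their highest, as given above, and thalamus genes were at their lowest, at -1.31 relative to their mean over the arrays. Whether the position of the dissection moves with the astrocyte values of that array was not tested. Without saline replicate 2 the median of the 9 genes was 0.14 at 1 mg/kg and 0.19 at 10 mg/kg, of the other sign from the values with all arrays.

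Among 10519 other genes brighter than the median probe set, those whose 9 values were most like this mean were Wnt7a, with a Pearson r of 0.953, Cnn3 (0.943), Ddx17 (0.941), Zfp354c (0.935), Akip1 (0.934) and Man1c1 (0.931). Spearman's rho lay between 0.867 and 0.933 for these 6 genes. They were picked as the highest of all genes searched, so no p is given, and the likeness rests in part on the extreme arrays, because r fell to between 0.732 and 0.907 over the 7 arrays left without saline replicate 2 and 1 mg/kg replicate 1. Wnt7a, a secreted WNT ligand, read 4.68, 5.39 and 4.86 in saline, 5.05, 4.66 and 4.78 at 1 mg/kg and 5.04, 4.65 and 4.95 at 10 mg/kg. Its highest array in each of the saline and 1 mg/kg groups was the same as for the astrocyte genes, and in the 10 mg/kg group it was replicate 1. Only the Wnt7a value in saline replicate 2 lies above the range of the control probe sets.

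Promoter sequence was set beside these patterns for the gene that differed most between groups, Mlc1, and for Gfap, Slc1a2 and Gja1, which are 3 of the 5 genes with probe sets in the shared order of arrays. Each line gives 250 bases before to 50 bases after a RefSeq transcription start (GRCm38.p6), 5′ to 3′ on the gene's strand, with capitals marking a match to a motif of a factor known for astrocyte genes.
Mlc1, chr15:88978504-88978803, minus strand: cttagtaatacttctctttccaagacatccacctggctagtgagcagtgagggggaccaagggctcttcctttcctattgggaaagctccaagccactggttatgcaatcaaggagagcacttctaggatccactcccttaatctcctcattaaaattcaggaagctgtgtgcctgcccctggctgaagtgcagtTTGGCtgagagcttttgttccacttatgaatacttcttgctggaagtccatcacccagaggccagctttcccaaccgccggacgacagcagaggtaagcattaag
Gfap, chr11:102897151-102897450, minus strand: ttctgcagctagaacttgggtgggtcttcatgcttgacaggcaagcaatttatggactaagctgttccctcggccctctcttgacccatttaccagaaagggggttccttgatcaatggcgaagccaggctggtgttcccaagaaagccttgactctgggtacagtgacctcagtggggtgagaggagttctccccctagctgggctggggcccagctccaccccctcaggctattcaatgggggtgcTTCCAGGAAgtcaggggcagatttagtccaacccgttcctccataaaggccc
Slc1a2, chr2:102706188-102706487, plus strand: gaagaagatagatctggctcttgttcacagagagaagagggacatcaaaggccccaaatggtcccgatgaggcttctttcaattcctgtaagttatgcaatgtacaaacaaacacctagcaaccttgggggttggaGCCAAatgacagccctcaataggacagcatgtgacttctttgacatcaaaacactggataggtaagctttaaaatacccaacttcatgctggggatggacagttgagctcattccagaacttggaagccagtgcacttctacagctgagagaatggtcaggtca
Gja1, chr10:56377050-56377349, plus strand: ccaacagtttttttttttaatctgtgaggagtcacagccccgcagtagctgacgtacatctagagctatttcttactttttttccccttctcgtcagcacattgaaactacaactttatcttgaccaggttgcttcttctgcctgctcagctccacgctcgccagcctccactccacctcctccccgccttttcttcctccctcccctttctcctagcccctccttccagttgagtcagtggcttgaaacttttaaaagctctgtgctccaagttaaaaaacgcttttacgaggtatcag

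The motifs were searched on both strands. They were ACAAT, the core of a SOX site, TTCNNNGAA, a STAT site, TTGGC, the core of an NFI site, and TATAAA, the TATA box. The full NFI palindrome, which holds that core on both strands, was also searched. Mlc1 and Slc1a2 each held 1 TTGGC, which 46.7% of all 32851 promoters hold, Gfap held 1 TTCNNNGAA, which 8.3% hold, and Gja1 held none of them. Among the other members, Slc1a3 held an ACAAT (31.0% of promoters), a TTCNNNGAA and a TATAAA (13.6%), S100b held 4 copies of TTGGC and Glul 2, and Aldh1l1 and Gjb6 had no match. None of the 9 members with a promoter in the tables held the palindrome (0.0365%), and the promoter of Aqp4 was not analysed here. The windows of Mlc1 and Slc1a2 start from a transcription start inside the annotated span of the gene.

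The partners of Mlc1 and Aqp4 in the endfoot were examined next. Of 12 genes for endfoot and ion transport, 10 were measured, with 6 higher and 4 lower than saline at 1 mg/kg (median 0.06) and 5 each way at 10 mg/kg (median -0.01), and 0 passed the test. Hepacam, the binding partner of Mlc1, differed by 0.12 and 0.11 with a standard error of 0.15 (adjusted p = 0.803 and 0.833). At 10 mg/kg its interval, -0.23 to 0.45, does not reach the Mlc1 estimate. Kcnj10, the inward rectifier that buffers potassium, differed by -0.12 and -0.15 with a standard error of 0.12, and the chloride channel gene Clcn2 by -0.06 and -0.31 with a standard error of 0.20. Clcn2 read 6.15, 6.73 and 6.54 at 10 mg/kg against 6.86, 6.48 and 6.99 in saline, and the groups overlapped. The bicarbonate transporter gene Slc4a4 and Ttyh1, a chloride channel gene, gave 0.08 and 0.09 at 1 mg/kg and -0.06 and -0.14 at 10 mg/kg, and each has other probe sets of the opposite sign.

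Genes of transmitter uptake and metabolism had mostly lower values. Of 15 measured, 10 were lower than saline at 1 mg/kg (median -0.07) and 13 at 10 mg/kg (median -0.15), 0 passed the adjusted test, and 4 had an unadjusted p under 0.05 at 10 mg/kg, all lower, where 5.51% of all probe sets did. Without 10 mg/kg replicate 1 the 4 became 1 and the median -0.08. Over all 45037 probe sets 3640 then had such a p in either direction, against 4318 with all arrays. Acsbg1, an acyl-CoA synthetase of astrocytes, read 8.96, 8.97 and 9.05 at 10 mg/kg against 9.21, 9.39 and 9.28 in saline, without overlap and with a difference of -0.30 (adjusted p = 0.501). It gave -0.25 at 1 mg/kg (adjusted p = 0.519). Phkg1, a subunit of phosphorylase kinase in glycogen breakdown, gave -0.45 and -0.54 (adjusted p = 0.472 and 0.464), but its values of 3.93 to 5.05 lie in the range of the control probe sets. Acsl6, another acyl-CoA synthetase, gave -0.25 and -0.15, with its other probe set of the opposite sign in both comparisons. The glutamine transporter gene Slc38a5 gave 0.19 and -0.20 at values of 4.15 to 4.63, also in the range of the controls.

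Among transcription factors and receptors of astrocytes, 15 of 16 genes were measured, with medians of -0.04 at 1 mg/kg and 0.00 at 10 mg/kg, and 0 passed. Hes5, a repressor downstream of Notch, read 4.66, 4.50 and 4.61 at 1 mg/kg against 5.14, 5.04 and 4.99 in saline, a difference of -0.46 (adjusted p = 0.399, and 0.0973 without the block), while at 10 mg/kg its estimate was 0.02. The Hes5 values at 1 mg/kg lie in the range of the control probe sets, and those in saline in or just above it. The receptor gene Gpr37l1 gave -0.20 and -0.31, the tissue factor gene F3 -0.08 and -0.25, and Id4, an inhibitor of helix-loop-helix factors, 0.17 and 0.00. Of the 14 secreted proteins, 10 had lower values at 1 mg/kg and 8 at 10 mg/kg, with medians of -0.05 and -0.00. Apoe, the lipid carrier, gave -0.22 and -0.25 with a standard error of 0.13, Agt (angiotensinogen) -0.22 and -0.33 with a standard error of 0.17, Chrdl1 0.28 and 0.15, and Gpc6 -0.04 and 0.20. All 3 other probe sets of Chrdl1 and 2 of those of Gpc6 had the opposite sign at 10 mg/kg. The Chrdl1 values of 4.61 to 5.16 lie in or just above the range of the control probe sets. None of these genes passed the test in either comparison.

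Genes of reactive astrocytes had mostly higher values than saline. At 10 mg/kg their median fell without 10 mg/kg replicate 1 and rose without saline replicate 2. Of 34 such genes 32 were measured, 22 had higher values than saline at 1 mg/kg (median 0.07) and 24 at 10 mg/kg (median 0.15), and 0 had an adjusted p under 0.05, with 14 of the 32 dimmer than the median probe set. With an unadjusted p under 0.05 there were 3 higher and 2 lower genes at 1 mg/kg, where 4.53% of all probe sets were higher and 5.77% lower, and 6 higher and 0 lower genes at 10 mg/kg, where 4.08% were higher and 5.51% lower. Osmr, the receptor subunit for oncostatin M, read 5.54, 5.16 and 5.18 at 10 mg/kg against 4.47, 4.67 and 4.63 in saline, a difference of 0.71 (adjusted p = 0.351, and 0.0538 without the block), and 0.35 at 1 mg/kg. Srgn (serglycin) read 9.05, 8.83 and 8.77 at 10 mg/kg against 8.55, 8.58 and 8.57 in saline, and gave 0.32 there and 0.31 at 1 mg/kg (adjusted p = 0.453 and 0.432). Fbln5, an extracellular matrix protein, gave 0.70 at 1 mg/kg and 0.66 at 10 mg/kg, and S1pr3 -0.26 and -0.02. Another probe set each of Osmr, Fbln5 and S1pr3 had the opposite sign at 10 mg/kg, as had that of S1pr3 at 1 mg/kg. The saline values of Osmr and the S1pr3 values of 3.95 to 4.42 lie in the range of the control probe sets. Osmr read 4.84, 5.11 and 4.85 at 1 mg/kg, in or just above that range. Its values at 10 mg/kg, 5.16 to 5.54, lie above the range by a small margin.

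Many reactive genes are also expressed by vascular and meningeal cells. The reactive list had its highest median in 10 mg/kg replicate 1, 0.32 above its mean over the arrays, and the meninges list was also highest in that array, at 1.03. All 7 meningeal genes had higher values than saline in both groups, with medians of 0.29 at 1 mg/kg and 0.58 at 10 mg/kg. Endothelial genes had medians of 0.01 and -0.03, and pericyte and smooth muscle genes 0.09 and 0.00. Without 10 mg/kg replicate 1, 20 of the 32 reactive genes had higher values at 10 mg/kg, with a median of 0.06. The meningeal median was also 0.06. Of the reactive genes 1 had an unadjusted p under 0.05 in place of 6. Among all 45037 probe sets 3640 had one, against 4318 with all arrays. The estimates at 10 mg/kg were then 0.20 for Srgn, 0.35 for Fbln5 and 0.53 for Osmr. At 1 mg/kg the same fit gave 8 higher and 2 lower reactive genes with an unadjusted p under 0.05, with unchanged estimates. At that dose 5517 of all 45037 probe sets had such a p in this fit, against 4637 with all arrays. Without saline replicate 2, 26 of the 32 reactive genes had higher values at 10 mg/kg, with a median of 0.19. Of these genes 5 were higher and 0 lower with an unadjusted p under 0.05, where 4042 of all 45037 probe sets had one. At 1 mg/kg that fit gave 25 higher genes, a median of 0.06, and 1 higher and 2 lower with such a p. There 3160 of all 45037 probe sets had one. The meningeal medians were then 0.53 and 0.85. The part of meningeal tissue in the reactive genes was not tested.

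**Figure D4:**
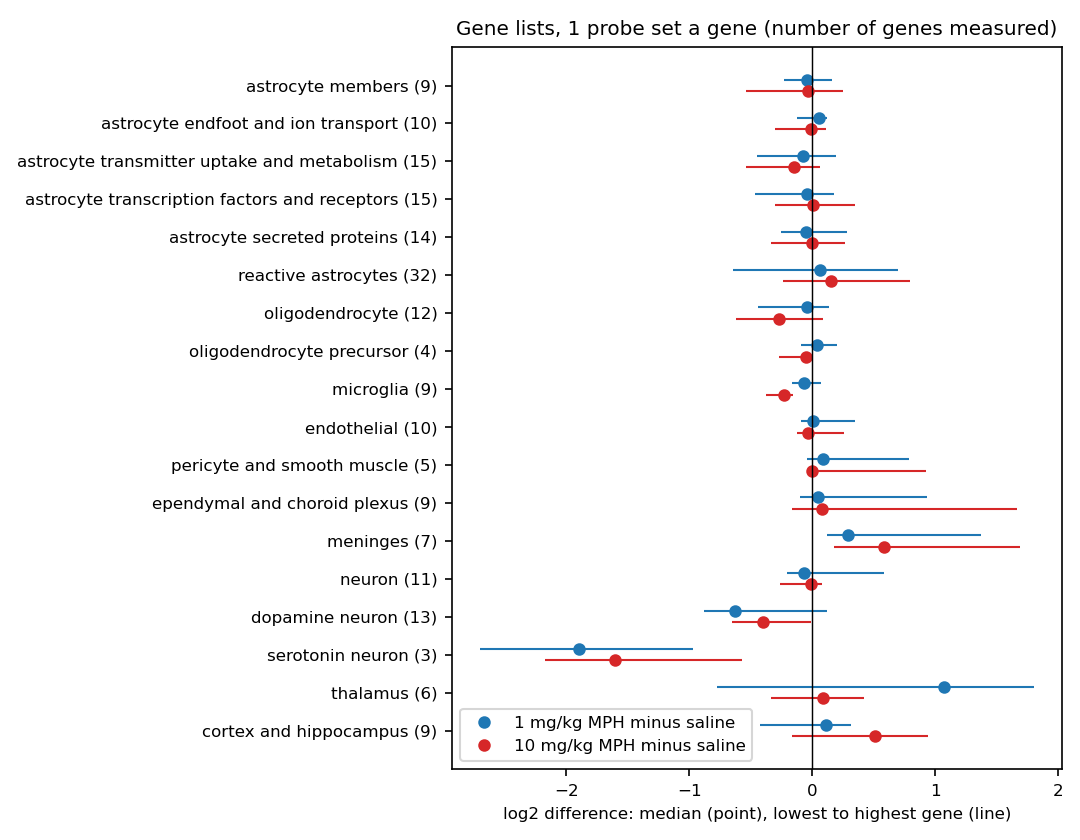
Log2 difference from saline (horizontal axis) for 18 gene lists (vertical axis, number of measured genes in brackets) in arrays labelled 1 mg/kg MPH (blue) and 10 mg/kg MPH (red). Points are list medians and lines run from the lowest to the highest gene. The astrocyte lists sit near 0, with medians between -0.15 and 0.15, while the serotonin neuron list has medians of -1.90 and -1.60.

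Other cells of the tissue give the scale of these differences. Dopamine neuron genes had medians of -0.63 at 1 mg/kg and -0.40 at 10 mg/kg over 13 genes, and the 3 measured serotonin neuron genes -1.90 and -1.60. Microglia genes had medians of -0.06 and -0.23, with all 9 lower at 10 mg/kg, or 7 of 9 with a median of -0.09 without 10 mg/kg replicate 1, and general neuron genes -0.07 and -0.01. Thalamus genes stood at 1.07 and 0.08, and cortex and hippocampus genes at 0.11 and 0.51. Without 10 mg/kg replicate 1 the values at 10 mg/kg were 0.61 for thalamus and -0.01 for cortex and hippocampus. Without saline replicate 2 thalamus genes stood at 0.36 and -0.36, serotonin neuron genes at -1.18 and -0.89, and dopamine neuron genes at -0.45 and -0.36. The 9 astrocyte genes, at -0.04 in each comparison with all arrays, lay closer to 0 than the dopamine and serotonin neuron genes with all arrays and without either of these arrays, and Mlc1 at 10 mg/kg was the exception among them.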

How the data were processed

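RNA of the SN was measured on 9 arrays, 3 for saline and 3 for each dose of MPH. The authors deposited log2 intensities from RMA, which corrects the background, normalizes quantiles over arrays and summarizes each probe set (version not given in the sources used here). ComBat, a batch correction, is also named in the methods, for the replicates. The sources used here do not give whether the deposited values already include it, and p-values with and without the block depend on that. Replicate numbers differed less in the deposited values than chance gives (median F of 0.073 over probe sets, against 0.828). Deviations of arrays of the same number were negatively correlated (from -0.626 to -0.132). Removing a batch mean for each replicate number would by itself give both, so these values cannot show whether the replicates were paired.

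Of 45141 probe sets, 104 controls were left out. Symbols came from the platform annotation (28898 probe sets naming 1 gene, 551 several, 15588 none). The other 45037 entered lmFit and eBayes of limma 3.58.1 (R 4.3.3), on group with the replicate number as an additive block, since the methods treat replicates as a batch. Adjusted p-values are Benjamini-Hochberg values over all probe sets, with a threshold of 0.05. The fit was tested on simulated data. The brightest probe set stands for a gene. Named outside the 10 members were the 4 genes of each other astrocyte list with the smallest p, and the 6 genes most like the members. The members and lists were chosen with earlier results of these data known. The Mlc1 partner Hepacam was named after its values were seen. Promoters came from RefSeq tables, in which 9 of the 10 genes matched. The number of arrays limits the precision.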

Additional observations from a re-analysis of the deposited data

How the results depend on the processing

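The count of astrocyte probe sets called was 0 under every alternative tried except the fit with no replicate block, which called 1 (Mlc1 at 10 mg/kg, adjusted p = 0.0415, and 0.0415 to 0.69 over its alternatives). Over all probe sets that fit without the block called 54, 115 and 0 in the 1 mg/kg, 10 mg/kg and between-dose comparisons, the intensity trend with the robust option 2, 1 and 0, the fit without saline replicate 2 called 1, 1 and 0, and the others 0. Against saline, the counts without the block equal the published numbers of changed genes, with the doses the other way round. Among the astrocyte probe sets the block changed no other call. The pairing by replicate number comes from the methods. The deposited values cannot show whether it held, since values already corrected for the batch would not show it. Leaving out 1 array moved the median of the 9 genes between -0.13 and 0.14 at 1 mg/kg, between -0.14 and 0.19 at 10 mg/kg and between -0.13 and 0.13 between the doses, with the highest value of each comparison with saline coming without saline replicate 2.

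Mlc1 kept its sign in every alternative. At 1 mg/kg it moved to -0.14 without 1 mg/kg replicate 2. For other genes the sign turned in some alternatives, most often for an estimate near 0 but also for the 0.25 of Gjb6 at 10 mg/kg, and the cause was not tested. At 1 mg/kg Aqp4 was 0.0098 after a second quantile normalization, 0.0463 with array weights and 0.076 as the mean of its probe sets, and array weights gave Slc1a2 0.0148, Slc1a3 0.0363 and Gja1 0.035. At 10 mg/kg array weights gave Aqp4 0.0305 and Slc1a2 0.0183, and the mean of its probe sets gave Gja1 -0.0709. Between the doses Gfap was 0.0024 after quantile normalization and 0.0193 as the mean of its probe sets, and array weights gave Slc1a2 0.0034 and Gjb6 -0.0372. Leaving out 1 array in turn gave, at 1 mg/kg, -0.11 to 0.14 for Aqp4, -0.10 to 0.45 for Gfap, -0.21 to 0.20 for Slc1a2, -0.26 to 0.15 for Slc1a3, -0.13 to 0.13 for Gja1 and -0.10 to 0.0117 for S100b. At 10 mg/kg it gave -0.14 to 0.11 for Aqp4, -0.10 to 0.45 for Gfap, -0.30 to 0.19 for Slc1a2, -0.0728 to 0.34 for Slc1a3, -0.0432 to 0.21 for Gja1 and -0.0056 to 0.42 for Gjb6. Between the doses it gave -0.14 to 0.0501 for Aqp4, -0.18 to 0.16 for Gfap, -0.24 to 0.23 for Slc1a2, -0.0362 to 0.0333 for Aldh1l1, -0.0273 to 0.17 for Gja1 and -0.17 to 0.25 for Gjb6. In total 406 alternative values of single genes kept sign and side of the threshold and 52 turned sign. Values under about 5 cannot be told from background.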
